A study of Mus musculus with 12 samples.

Results

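The nuclear oxidative phosphorylation genes code for the subunits, made outside mitochondria, of the respiratory chain and of ATP synthase. They were taken by symbol: rows starting with Nduf, Sdh, Uqcr, Cox4, Cox5, Cox6, Cox7, Cox8 or Atp5, without pseudogene symbols. This gave 96 of the 47517 genes in the count table, and 90 of the 96 were among the 17609 genes that passed a filter on low counts and were tested. RNA was measured by ribosome-depleted, stranded total RNA sequencing of mouse embryonic fibroblasts of the C57BL/6 strain, taken at E13.5 and immortalised with SV40 T antigen. In all 6 groups both Ssb1 (Nabp2) and Ssb2 (Nabp1), whose proteins bind single-stranded DNA, carried floxed alleles. Cre-positive cells, whose genotype label reads Ssb1 Fl/F and Ssb2 Fl/Fl, carried Rosa-CreERT2, a Cre recombinase driven from the Rosa locus that 4-hydroxytamoxifen (4-OHT) activates. They were given 4-OHT for 5 days, given the vehicle ethanol for 5 days, or left untreated. Cre-negative cells, labelled Ssb1 Fl/Fl and Ssb2 Fl/Fl, had the same 3 conditions. Each group had 2 libraries, here named by their numbers from 1 to 12. The labels give neither the number of embryos or clones behind each line nor separate cultures for the libraries, so the spread behind each p-value is that of library pairs and may be technical only.

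Complex I takes electrons from NADH, complex II from succinate, and both hand them to ubiquinone. Complex III passes them on to cytochrome c, complex IV passes them to oxygen, and the proton gradient built on the way drives complex V, the ATP synthase. Complexes I, III, IV and V also hold subunits coded by mitochondrial DNA, whereas every subunit of complex II is coded in the nucleus. Assembly factors help to build a complex without staying in it.

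Library totals ran from 20201855 to 36367012 counts, and the chosen genes took 0.842% of them in ethanol library 4 to 1% in untreated Cre-negative library 1. Nabp1 was at 3.40 and 3.96 CPM (counts scaled to a common library total) and Nabp2 at 4.84 and 5.09 CPM in Cre-positive 4-OHT libraries, against 14.5 to 15.9 CPM and 19.8 to 22.6 CPM with ethanol. Untreated Cre-positive libraries were at 16.1 and 15.2 CPM for Nabp1 and 22.5 and 20.7 CPM for Nabp2. The Cre-negative libraries were higher in both genes, at 24.52 to 27.45 CPM for Nabp1 and 26.18 to 31.22 CPM for Nabp2. Fibroblast markers summed to 5150 to 7118 CPM, but Thy1, Lum and Dcn were below 1 CPM in every library. Markers of other cell types were low, except neural ones (107.7 to 172.4 CPM, mostly Nes and Map2, with Gfap and Rbfox3 below 1 CPM) and, in Cre-negative cells, adipocyte ones (77.1 to 86.6 CPM, from Fabp4 and Pparg, with Adipoq and Plin1 below 1 CPM). In bulk RNA, fewer cells of a type and less RNA per cell cannot be told apart.

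Most of the measured respiratory genes that changed in Cre-positive cells given 4-OHT were higher than with ethanol, by small amounts. By edgeR's quasi-likelihood test with Benjamini-Hochberg adjustment over all genes, 48 of the 90 rose and 5 fell (58.9% in all), whereas 38.3% of all tested genes changed, 21.1% higher and 17.2% lower. The median log2 fold change of the 90 was 0.16, and that of all tested genes was 0.03. By complex, the median log2 change of the tested subunits was 0.21 in complex IV, 0.16 in V, 0.15 in III, 0.14 in I and 0.095 in II. The count and the medians of the members depended most on ethanol library 4 and, for the count, also on 4-OHT library 11. They did not depend on these alone, as leaving out a library outside the comparison also moved them. Without Cre-negative 4-OHT library 5, the median was 0.135 for the members and 0.007 for all tested genes. Without library 4, 25 of 91 tested members passed (27.5%), 21 higher and 4 lower, and 26.6% of all tested genes did, so the share was near that of all genes. The median of the members was then 0.08, and the medians by complex were 0.156 in IV, 0.105 in V, 0.095 in III, 0.079 in I and 0.072 in II. Without library 11, 31 of 91 passed (34.1%), and 26.6% of all tested genes did.

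**Figure D1:**
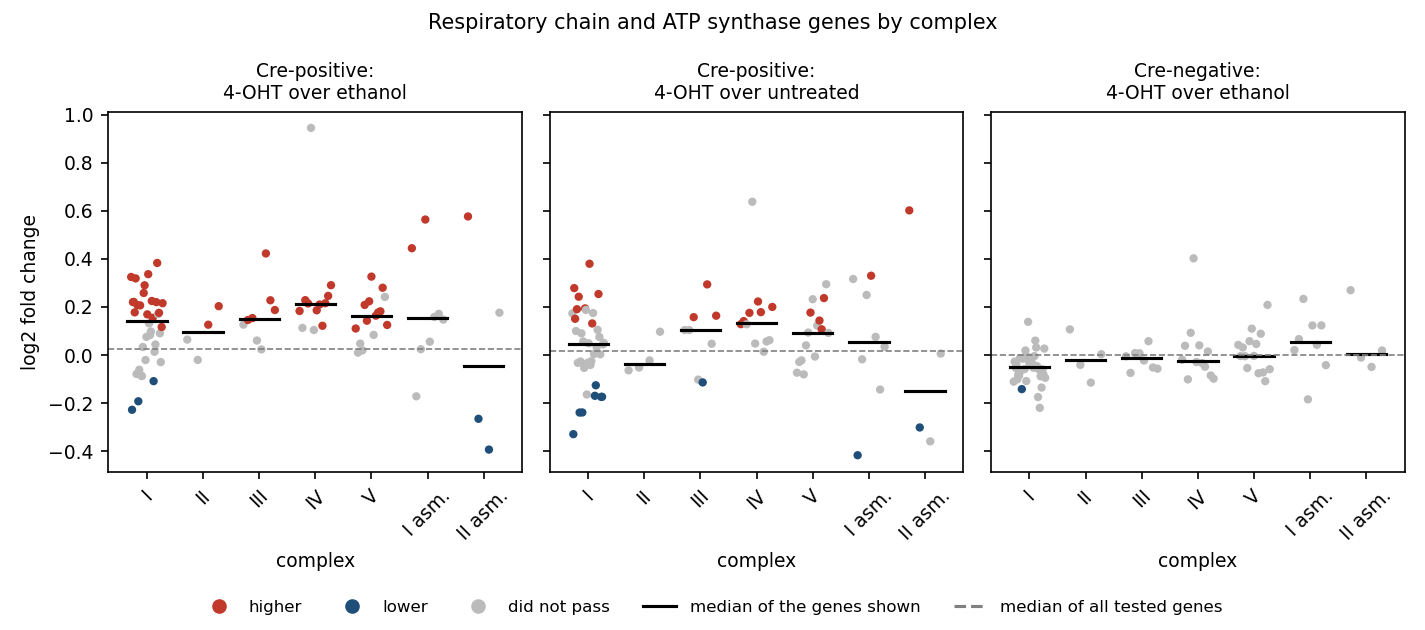
Log2 fold change of each tested subunit or assembly-factor gene (points), by complex on the horizontal axis ("asm." marks assembly factors), for 4-OHT over ethanol and over untreated in Cre-positive cells and for 4-OHT over ethanol in Cre-negative cells. Black bars are medians of the genes shown and the dashed line is the median of all tested genes. In Cre-positive cells the complex IV median stood at 0.21 over ethanol and 0.135 over untreated, and in Cre-negative cells at -0.02.

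Uqcrfs1, the Rieske iron-sulphur protein that takes electrons in complex III (chromosome 13, 30540308 to 30545362, GRCm38), had the smallest adjusted p of the tested members. It was at 134.8 and 139.1 CPM in Cre-positive 4-OHT libraries, against 104.0 and 100.4 CPM with ethanol and 112.4 and 110.9 CPM untreated. Both 4-OHT libraries lay above all 4 other Cre-positive libraries. The log2 fold change over ethanol was 0.42 ± 0.043 (SE; edgeR adjusted p = 1.71e-07), and over untreated 0.29 ± 0.044 (edgeR adjusted p = 1.54e-05). In Cre-negative cells Uqcrfs1 was at 116.1 and 113.0 CPM with 4-OHT, against 105.0 and 114.9 CPM with ethanol, so that those groups overlapped. In complex III, 5 of 8 subunits rose and the other 3 did not pass. Uqcrh, the hinge protein, rose by 0.23 on the log2 scale, and Uqcrq and Uqcrb, small accessory subunits, by 0.19 and 0.15. The large core proteins Uqcrc1 and Uqcrc2, which carry no redox centre, had log2 changes of 0.06 and 0.02 that did not pass.

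In complex I, 18 of 36 subunits rose and 3 fell. Ndufb6, an accessory subunit of the membrane arm (chromosome 4, 40270591 to 40279421), was at 44.2 and 44.7 CPM with 4-OHT, against 35.3 and 35.1 CPM with ethanol and 33.8 and 34.6 CPM untreated in Cre-positive cells. The 4-OHT libraries were the highest of the 12, and the log2 change over ethanol was 0.34 ± 0.054 (edgeR adjusted p = 4.19e-05). Ndufa2, an accessory subunit of the NADH-oxidising arm, was at 125.7 and 125.0 CPM with 4-OHT, against 102.5 and 98.5 CPM with ethanol and 109.8 CPM in both untreated libraries. Here the ethanol libraries were also the lower ones of the Cre-positive cells, and the log2 changes were 0.32 over ethanol and 0.19 over untreated (edgeR adjusted p = 3.76e-06 and 0.00099). Ndufa1, Ndufb11 and Ndufs5, further accessory subunits, rose by 0.33, 0.26 and 0.38 over ethanol.

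The 7 core subunits of complex I measured here bind the electron carriers or sit beside them. Of these 7, Ndufs7 and Ndufv2 rose by 0.18 and 0.12, Ndufs1 fell by 0.11, and the group's median was 0.04. The 29 accessory subunits had a median of 0.17, with 16 higher and 2 lower. Ndufs1, which carries iron-sulphur clusters, was at 108.8 and 106.9 CPM with 4-OHT, against 117.7 and 115.0 CPM with ethanol and 122.5 and 120.3 CPM untreated. Its change over ethanol just passed (edgeR adjusted p = 0.049) and did not pass in DESeq2's Wald test (adjusted p = 0.0681) or in edgeR's test without library 3, 4, 11 or 12. Ndufv1, which takes part in NADH oxidation, had a log2 change of -0.03 that did not pass.

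The other accessory subunits of complex I that fell were Ndufa10 and Ndufa6. Ndufa10 (chromosome 1, 92439010 to 92473860) was at 103.3 and 102.0 CPM with 4-OHT, against 122.0 and 118.5 CPM with ethanol and 130.1 and 127.9 CPM untreated. Both 4-OHT libraries were below the 4 other Cre-positive libraries, with log2 changes of -0.23 ± 0.039 over ethanol and -0.33 ± 0.039 over untreated (edgeR adjusted p = 9.18e-05 and 9.41e-07). Ndufa6 was at 45.09 and 46.35 CPM with 4-OHT, against 54.52 and 50.01 CPM with ethanol. Its groups did not overlap and the log2 change was -0.19 (edgeR adjusted p = 0.00617), a call that was lost without 4-OHT library 11.

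Complex II has 4 subunits, of which the membrane anchors Sdhd and Sdhc rose and the catalytic Sdha and Sdhb did not pass. Sdhd was at 147.4 and 143.3 CPM with 4-OHT, against 131.4 and 121.3 CPM with ethanol and 136.8 and 135.0 CPM untreated. The groups did not overlap, and the log2 change over ethanol was 0.20 ± 0.041 (edgeR adjusted p = 0.000477). Sdhc rose by 0.13 over ethanol, but its untreated libraries, at 89.4 and 87.2 CPM, were above both 4-OHT libraries, at 86.9 and 87.1 CPM. Sdha, the flavoprotein, and Sdhb, the iron-sulphur protein, had log2 changes of 0.06 and -0.02.

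The complex II assembly factors went in opposite directions. Sdhaf1, which helps put iron-sulphur clusters into Sdhb (chromosome 7, 30321406 to 30323895), was at 3.74 and 3.43 CPM with 4-OHT, against 2.54 and 2.28 CPM with ethanol and 2.16 and 2.61 CPM untreated. Both 4-OHT libraries were above the others of the Cre-positive line, with a log2 change of 0.58 ± 0.159 over ethanol (edgeR adjusted p = 0.0067), which did not pass in DESeq2's Wald test or without library 4 or 11. Sdhaf2, which helps flavin attach to Sdha, was at 50.6 and 46.1 CPM with 4-OHT, against 60.1 and 56.3 CPM with ethanol. It fell by 0.27 on the log2 scale with no overlap (edgeR adjusted p = 0.000431). Sdhaf3, another factor for Sdhb, was at 4.13 and 3.80 CPM with 4-OHT, against 4.68 and 5.73 CPM with ethanol, a log2 change of -0.39 (edgeR adjusted p = 0.0329) that was lost in DESeq2's Wald test and without library 4, 11 or 12.

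Of the 8 complex I assembly factors tested, Ndufaf3 and Atp5sl rose and the other 6 did not pass. Ndufaf3 (chromosome 9, 108565537 to 108567434) was at 13.1 CPM in both 4-OHT libraries, against 9.25 and 8.45 CPM with ethanol and 11.6 and 10.3 CPM untreated. The 4-OHT libraries were the highest and the ethanol libraries the lowest of the Cre-positive line, with a log2 change over ethanol of 0.56 ± 0.099 (edgeR adjusted p = 0.000121) and over untreated of 0.25 (edgeR adjusted p = 0.0513). Atp5sl, which despite its symbol is known as a complex I assembly factor, was at 7.93 and 7.76 CPM with 4-OHT, against 6.30 and 5.26 CPM with ethanol. Its log2 change was 0.44 (edgeR adjusted p = 0.00959), and the call was lost without library 4 or 11.

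Of the 12 complex IV subunits tested, 9 rose and the other 3 did not pass. Ndufa4, which was first described in complex I and is counted here with complex IV (chromosome 6, 11900292 to 11907497), was at 185.1 and 192.6 CPM with 4-OHT, against 162.0 and 146.8 CPM with ethanol and 163.7 and 165.0 CPM untreated. Both 4-OHT libraries were the highest of the 12, and the log2 change over ethanol was 0.29 ± 0.045 (edgeR adjusted p = 2.72e-05). Cox8a, a small membrane subunit, was at 179.6 and 177.2 CPM with 4-OHT, against 156.6 and 144.4 CPM with ethanol and 173.2 and 168.6 CPM untreated. It rose by 0.25 over ethanol, whereas the log2 change over untreated was 0.06 (edgeR adjusted p = 0.283). Cox7a2, Cox6a1 and Cox4i1, the widely expressed forms of their subunits, rose by 0.21, 0.21 and 0.18 over ethanol, and Cox5b by 0.23. The 3 that did not pass were Cox5a (0.11), Cox6b1 (0.10) and Cox6a2, whose level was below 1 CPM.

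Of the 15 ATP synthase subunits, 10 rose and the other 5 did not pass. Atp5b, the beta subunit of the catalytic head, was at 1577 and 1550 CPM with 4-OHT, against 1599 and 1507 CPM with ethanol, so the groups overlapped and the log2 change was 0.01. Atp5a1, the alpha subunit, was at 1081 and 1051 CPM with 4-OHT, against 1012 and 962.7 CPM with ethanol and 1140 and 1104 CPM untreated. It was between the ethanol and the untreated libraries, and its log2 change of 0.11 over ethanol (edgeR adjusted p = 0.0208) fell to 0.02 (adjusted p = 0.67) when ethanol and untreated libraries were joined as 1 control. Its call was also lost without library 1, 4, 5, 6, 8, 9, 10 or 11. Atp5k, the small e subunit of the membrane part, was at 38.5 CPM in both 4-OHT libraries, against 32.5 and 30.9 CPM with ethanol and 34.2 and 30.9 CPM untreated. Both 4-OHT libraries lay above the rest of the Cre-positive line, with log2 changes of 0.28 over ethanol and 0.24 over untreated (edgeR adjusted p = 0.000827 and 0.0038). Atp5e, the epsilon subunit of the stalk, rose by 0.21 over ethanol, and Atp5c1, the gamma subunit, had a log2 change of 0.05 that did not pass.

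**Figure D2:**
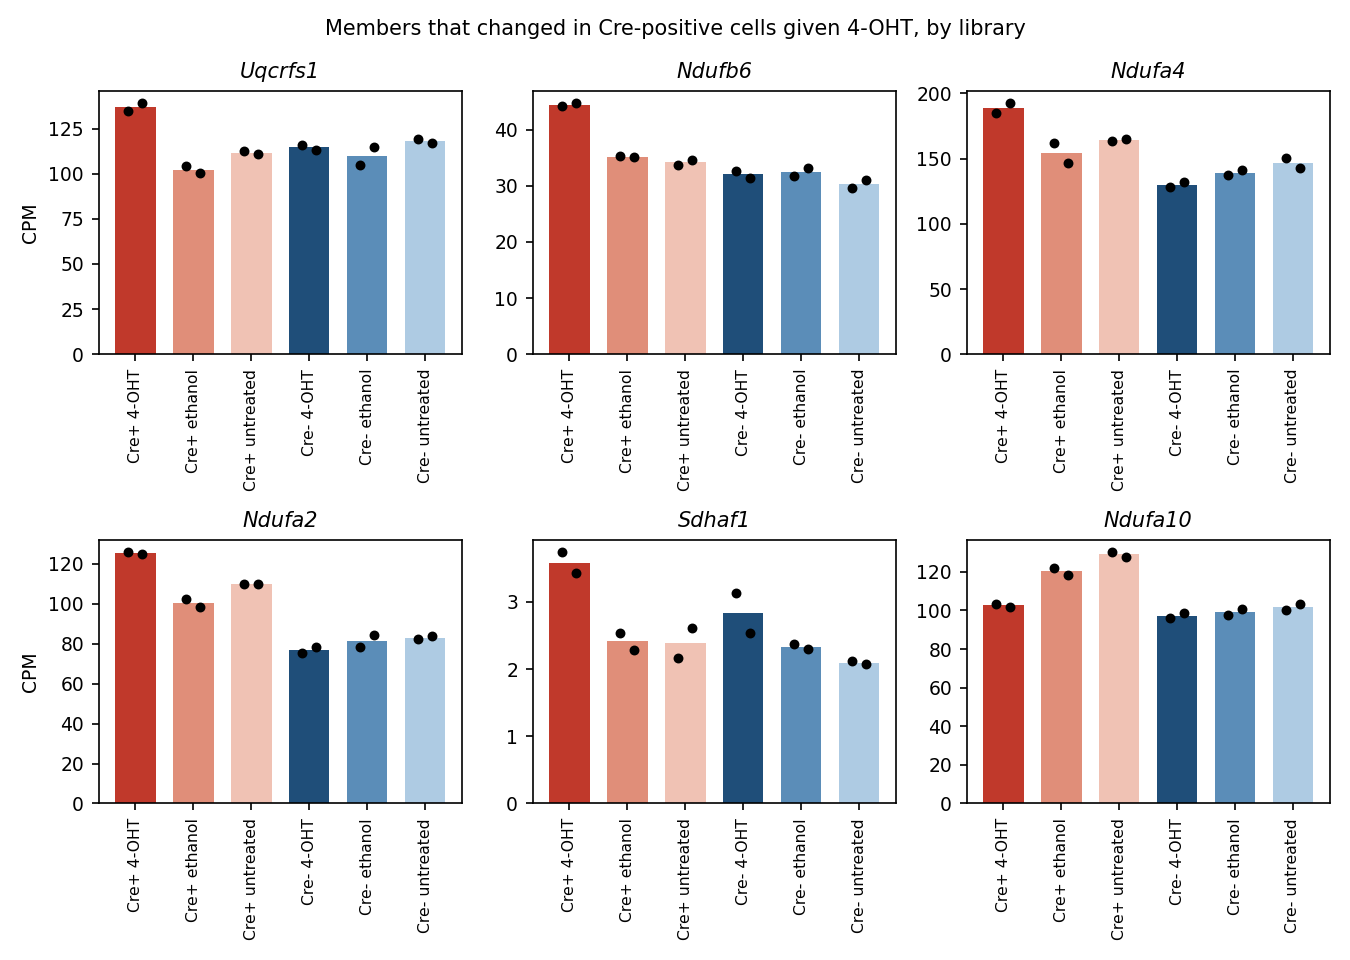
CPM in each library (points) with group means (bars) for 6 genes, 4-OHT, ethanol and untreated, in Cre-positive (red) and Cre-negative (blue) cells. The 4-OHT libraries of the Cre-positive line were above its other libraries for Uqcrfs1, Ndufb6, Ndufa4, Ndufa2 and Sdhaf1 and below them for Ndufa10.

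The size of these differences depended on which control was used. The comparison with untreated cells shares the 4-OHT libraries with the comparison with ethanol. In it, 23 of the 90 rose and 11 fell, or 37.8%, and 39.2% of all tested genes changed, 21% higher and 18.2% lower. The median log2 change was 0.06 for the 90 and 0.02 for all tested genes. With upper-quartile scaling, 19 rose and 14 fell, and the share of all tested genes under that scaling is not given here. Without 4-OHT library 11 or untreated library 7, fewer of the members and of all tested genes passed, and the members' share was below that of all genes. The median of the members was then 0.051 and 0.057, and that of all tested genes 0.011 and 0.004.

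Against untreated cells, complex IV had the highest median of the 5 complexes, 0.135, with 6 of 12 subunits higher and the other 6 not passing. The core subunits of complex I had a median of -0.13, and 4 of 7 fell, among them Ndufs1, Ndufs8 and Ndufv1, each by 0.17. The genes with the largest rises were Sdhaf1 (0.60), Ndufb6 (0.38) and the complex I assembly factor Ndufaf4 (0.33). Those with the largest falls were Ndufaf1, another complex I assembly factor (-0.42), Atp5s, a protein related to the ATP synthase coupling factor (-0.39), and Ndufa10 (-0.33). Ndufaf1 was at 15.8 and 16.2 CPM with 4-OHT, against 21.0 and 21.7 CPM untreated and 19.5 and 16.6 CPM with ethanol, so that 4-OHT and ethanol libraries came close but did not overlap.

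Ethanol libraries of the Cre-positive line were also compared with its untreated libraries. In ethanol, 17 of the 90 were lower and Ndufaf4 was higher, or 20%, and 14.9% of all tested genes changed, 8.11% higher and 6.84% lower. The median was -0.09 for the 90 and -0.01 for all tested genes. Ndufs8, a core subunit of complex I with iron-sulphur clusters, was at 77.0 and 72.6 CPM with ethanol, against 89.1 and 90.5 CPM untreated. The groups did not overlap, and the log2 change was -0.26 ± 0.045 (edgeR adjusted p = 0.000361). These values rested on single libraries. Without ethanol library 4, 3 of 91 passed (3.3%), 7.79% of all tested genes did, and the median of the members was -0.03. Fewer of the members and of all tested genes also passed without untreated library 7 or 8. The members' share was below that of all genes without library 7 and above it without library 8. Their median was -0.069 and -0.083.

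The subunit genes as a whole were lowest in the ethanol libraries of the Cre-positive line. The median log2 deviation of the 75 tested subunits from each gene's mean over 12 libraries was 0.05 and 0.04 in the 4-OHT libraries 11 and 12, -0.05 and -0.13 in the ethanol libraries 3 and 4, and -0.01 and -0.0048 in the untreated libraries 7 and 8. Libraries 3 and 4 were the lowest of the 12, and library 4 stood further off than library 3. The vehicle and these 2 libraries cannot be told apart. Summed over the subunits of a complex, 4-OHT levels exceeded ethanol levels by 14.6% in complex IV, 12.1% in III, 6.33% in II, 6.02% in I and 5.15% in V. Over ethanol library 3 alone the excess was 10.9% in complex IV, 8.68% in III, 4.28% in II, 2.81% in I and 2.43% in V, and over library 4 alone it was 18.7%, 15.7%, 8.47%, 9.44% and 8.04% in the same order. Against untreated cells, 4-OHT levels were higher by 9.47% in complex IV and 4.01% in III, and differed by -0.416% in I, -1.19% in II and -1.12% in V. The complex V sum rested mostly on Atp5b and Atp5a1, at 1553 and 987.6 of 3711 CPM in Cre-positive ethanol libraries. With 4-OHT they were at 1564 and 1066 of 3902 CPM. The median change of complex V over ethanol, where each gene counts alike, was 0.16, above those of complexes I, II and III.

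**Figure D3:**
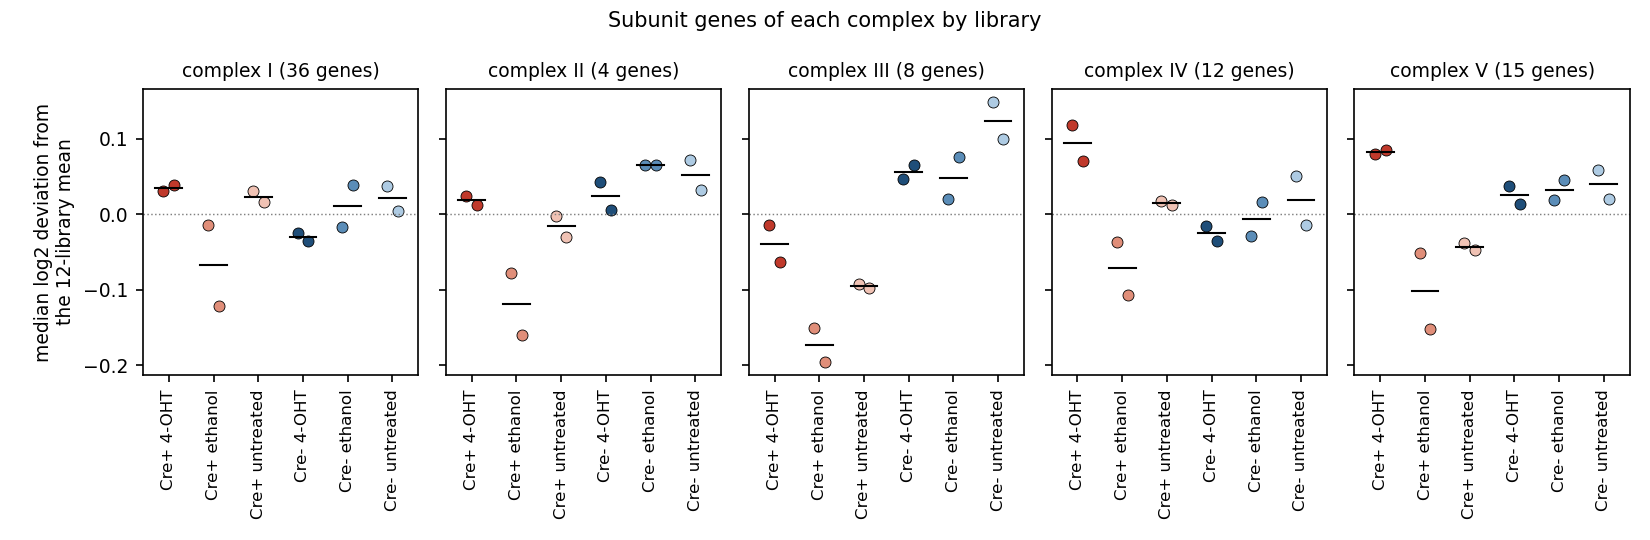
Median log2 deviation of the tested subunits of each complex from each gene's 12-library mean, 1 point per library and a bar at the mean of each group. In all 5 complexes the ethanol libraries of the Cre-positive line had the lowest group mean. In complex IV the 4-OHT libraries of that line, at 0.12 and 0.07, were the highest.

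In Cre-negative cells, few of these genes differed between 4-OHT and ethanol. Of the 90, 1 passed, and 5.99% of all tested genes passed, 3.33% higher and 2.65% lower. That gene was Ndufa7, an accessory subunit of complex I, at 104.4 and 109.5 CPM with 4-OHT, against 115.5 and 120.7 CPM with ethanol and 96.8 and 98.4 CPM untreated. The 4-OHT libraries lay between the other groups, and the log2 change over ethanol was -0.14 (edgeR adjusted p = 0.0446). Of the 90, 10 had an unadjusted p under 0.05, a threshold at which the share of all tested genes was not counted. Medians by complex ran from -0.05 in complex I to -0.004 in complex V. The count was 0 without library 5, 6, 9, 10, 11 or 12 and 3 without library 3 or 4.

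The difference between the 2 effects of 4-OHT, Cre-positive minus Cre-negative, passed for 33 of the 90, with 31 higher and 2 lower. This is 36.7%, and 28.3% of all tested genes passed, 14.5% higher and 13.8% lower. The median difference was 0.15 for the 90 and 0.02 for all tested genes. It was 0.20 for complex IV, 0.18 for III, 0.18 for I, 0.11 for II and 0.09 for V. Ndufaf3 differed by 0.75, Ndufa1 by 0.44 and Ndufa2 by 0.40. In Cre-negative cells Ndufaf3 was at 6.36 and 6.14 CPM with 4-OHT, against 6.28 and 7.83 CPM with ethanol, so those groups overlapped. The 2 lower ones, named after their values were seen, were Sdhaf2 (-0.26) and Ndufa10 (-0.20). Without Cre-negative ethanol library 10 or Cre-positive ethanol library 4, fewer of the members and fewer of all tested genes passed, and their shares were closer. The median difference of the members was then 0.129 and 0.105, and that of all tested genes 0.005 and 0.021.

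In Cre-negative cells both cultures were also compared with untreated ones. With 4-OHT against untreated, 2 of the 90 rose and 11 fell, or 14.4%, and 19.2% of all tested genes changed, 10.1% higher and 9.14% lower. Uqcrh was at 88.3 and 83.9 CPM with 4-OHT, against 107.3 and 105.0 CPM untreated, with no overlap and a log2 change of -0.30 ± 0.042 (edgeR adjusted p = 1.5e-05). Fewer of the members and fewer of all tested genes passed without library 1, 2, 5 or 6. The median of the members was -0.048 with all libraries and -0.025, -0.073, -0.052 and -0.056 without libraries 1, 2, 5 and 6. That of all tested genes was 0.001 with all libraries and 0.005, 0.001, -0.003 and -0.002 without them. With ethanol against untreated, 3 rose and 8 fell, or 12.2%, and 24.5% of all tested genes changed, 12.5% higher and 12% lower. Uqcrh fell by 0.25 there, and Ndufa7 rose by 0.28. Here too, fewer of the members and fewer of all tested genes passed without library 1, 2, 9 or 10. The median of the members was -0.016 with all libraries and 0.018, -0.024, 0.021 and -0.031 without libraries 1, 2, 9 and 10.

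The untreated lines themselves differed in many of these genes, at a share near that of all tested genes. Without library 1, 2, 7 or 8 the shares of members and of all genes were closer still. Of the 90, 18 were higher and 31 lower in Cre-positive than in Cre-negative cells, or 54.4%, and 49% of all tested genes differed, 24.4% higher and 24.6% lower. The partners of the catalytic ATP synthase head went in opposite directions. Atp5a1 was at 1140 and 1104 CPM in Cre-positive cells, against 804.6 and 782.4 CPM in Cre-negative cells, a log2 difference of 0.50 ± 0.037 (edgeR adjusted p = 1.81e-10). Atp5b was at 1600 and 1590 CPM in Cre-positive cells, against 2087 and 2019 CPM in Cre-negative cells, a log2 difference of -0.36 ± 0.037 (edgeR adjusted p = 3.37e-08). Neither gene's lines overlapped, in any of the 3 conditions.

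Complex III was lower in the Cre-positive line, with a median of -0.205, 5 of 8 subunits lower and the other 3 not passing. Uqcr11, a small accessory subunit, was at 58.5 and 57.9 CPM in Cre-positive cells, against 82.6 and 84.5 CPM in Cre-negative cells, a log2 difference of -0.52. Near-identical copies, defined below, held 32.2% of its joint counts, and the line difference with them is not given here. Among assembly factors, Ndufaf4 was at 41.9 and 38.9 CPM in Cre-positive cells, against 67.9 and 62.4 CPM in Cre-negative cells (log2 difference -0.68, edgeR adjusted p = 7.99e-10), and Ndufaf6 was lower by 0.57. Ndufaf3 and Ndufa2 were higher, by 0.59 and 0.40. Genotype, Cre and line cannot be told apart in this comparison. Fibroblast markers summed to 7093 and 7023 CPM in these Cre-positive libraries, against 5327 and 5320 CPM in the Cre-negative ones. Of 8 tested, 6 were higher and 1 lower, beside 49% of all tested genes that differed. Col1a2 was at 1718 and 1750 CPM, against 644 and 640.2 CPM. Vim went the other way, at 3496 and 3292 CPM, against 3827 and 3780 CPM. Adipocyte markers summed to 6.44 and 6.65 CPM, against 85.8 and 86.6 CPM. Their part in the result was not tested.

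**Figure D4:**
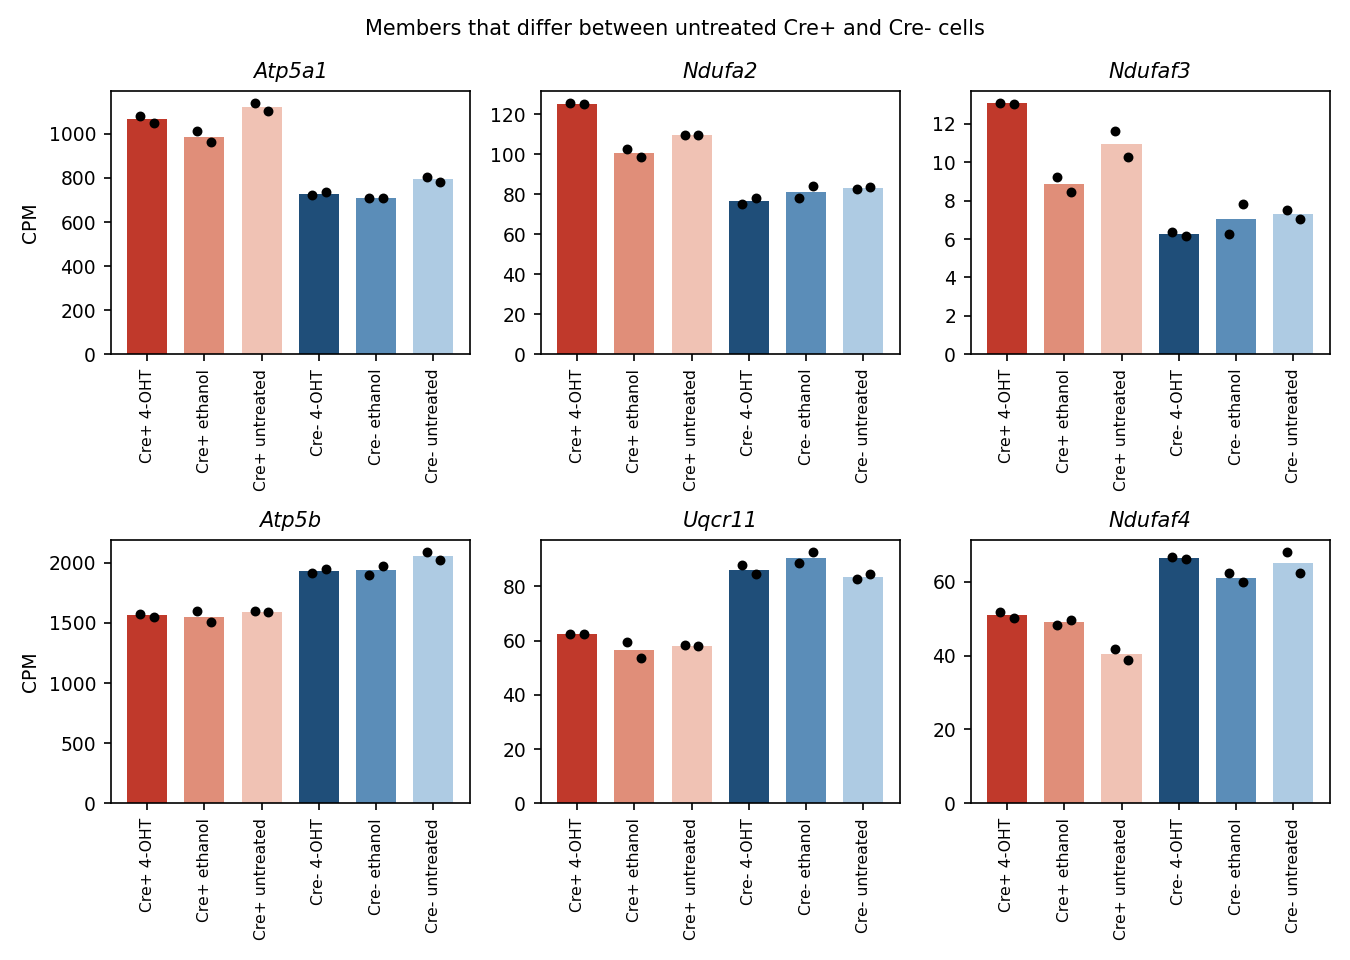
CPM in each library (points) with group means (bars) for 6 genes that differ between untreated Cre-positive (red) and Cre-negative (blue) cells. Atp5a1, Ndufa2 and Ndufaf3 were higher and Atp5b, Uqcr11 and Ndufaf4 lower in the Cre-positive line.

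Levels were compared between genes only per kilobase of transcript, as the mean CPM over the 12 libraries divided by the length of 1 transcript. Atp5b was highest at 925 CPM per kb, followed by Cox4i1 at 397 and Atp5a1 at 365. The c ring of ATP synthase, through which protons pass, is made from 3 genes that code for the same mature protein. Atp5g3 was at 292 CPM per kb, Atp5g1 at 62.5 and Atp5g2 at 9.48. A near-identical copy held 64.2% of the joint counts of Atp5g1, and copies held 12.2% for Atp5g2, so these 2 levels may be too low, whereas Atp5g3 had no such copy. With 4-OHT against ethanol, the log2 change was 0.08 for Atp5g3, which did not pass, 0.22 for Atp5g1 and 0.33 for Atp5g2. Atp5g2 was at 5.44 and 5.26 CPM with 4-OHT, against 4.46 and 4.09 CPM with ethanol, and its call (edgeR adjusted p = 0.0418) was lost without any 1 of the 12 libraries.

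Isoforms known from heart, skeletal muscle, lung or testis had few counts in these fibroblasts. Cox7a1 and Cox6a2, the muscle forms, had 1 to 12 and 4 to 17 counts per library, and Cox8b, also a muscle form, had 0 to 6. Cox4i2, the lung form that replaces Cox4i1, had 0 to 7 counts. The testis forms Cox6b2, Cox7b2 and Cox8c had at most 2 counts in any library. Cox6a2 and Ndufa4l2, a relative of Ndufa4 known for its response to low oxygen, passed the filter at 0.13 to 0.75 CPM and 0.17 to 0.74 CPM, and neither passed the test.

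Several members share most or all of their coding sequence with transcripts listed under other gene symbols, so that reads can be split between them. Copies were defined as transcripts under another gene symbol with at least 95% identity over at least 80% of the coding sequence. Whether a copy lies apart from the member or lacks introns was not checked. Of the 96 genes, 20 had such a copy in the count table, and in 15 the copies held more than 20% of the joint counts. Atp5l, the g subunit of ATP synthase, had 96.3% of the joint counts on copies, Cox7c 80.2% and Ndufs5 73.5%. Adding the copies, an alternative chosen after seeing the data, left 43 higher and 6 lower of the 90. The share of all tested genes in that fit is not given here, so this count does not set the members apart from other genes. Ndufs5 alone was at 10.4 and 10.5 CPM with 4-OHT, against 8.18 and 7.88 CPM with ethanol, but its log2 change of 0.38 became 0.15 with its copy (edgeR adjusted p = 0.066). Its difference between the 4-OHT effects of the lines became 0.20 (edgeR adjusted p = 0.119). Cox7c with its copies rose by 0.24 and Atp5g1 by 0.20, whereas Atp5h, a stalk subunit, no longer passed (0.09, edgeR adjusted p = 0.0786). Ndufs3 and Ndufab1 changed sign with their copies, and neither passed before or after.

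**Figure D5:**
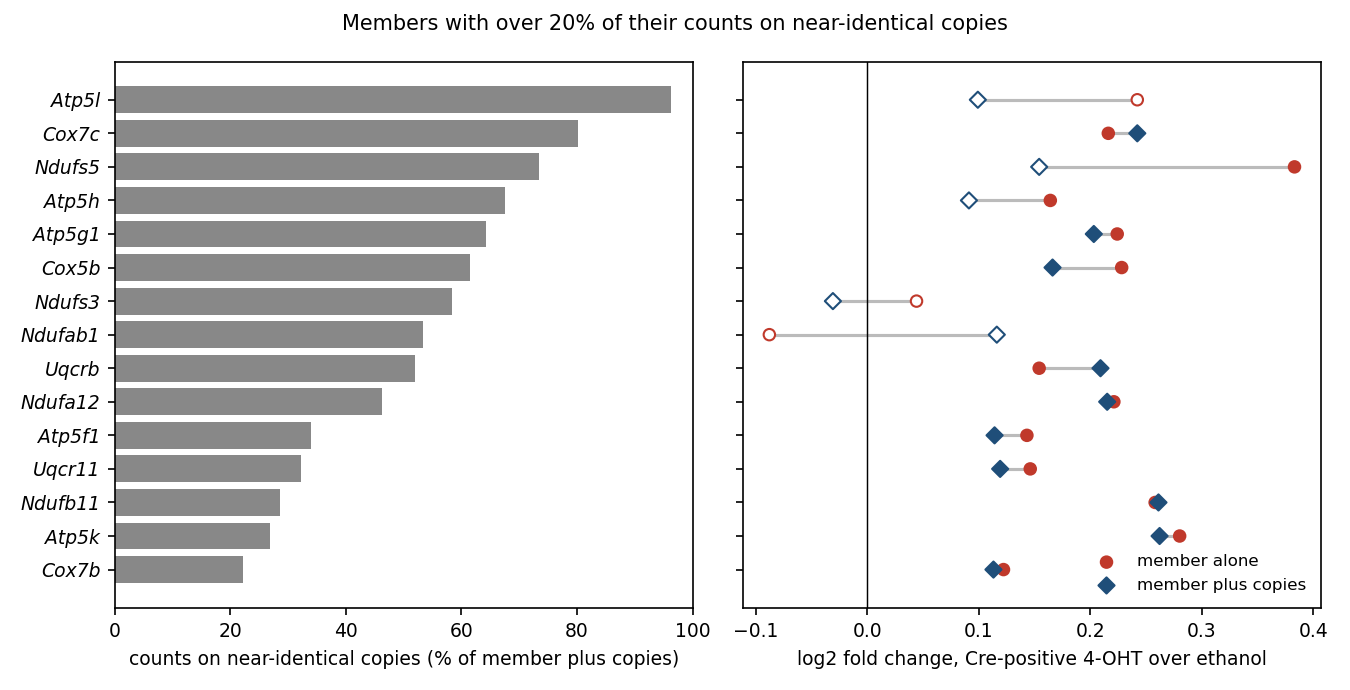
Left, the share of counts on near-identical copies for the 15 genes with more than 20% there. Right, the log2 fold change of 4-OHT over ethanol in Cre-positive cells for the gene alone (circles) and with its copies (diamonds), filled where the test passed. Ndufs5, at 0.38 alone and 0.15 with its copy, lost its call.

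Many respiratory genes are known to carry sites for nuclear respiratory factor 1 (NRF1), an activator of this gene set, near their start. In RefSeq annotation of GRCm38.p6, 80 of the 96 genes had a promoter sequence, and the 250 bases before the start were searched on both strands. A core of the NRF1 site, GCGC followed by any base and then TGCGC, was found in 14 of the 80 (17.5%) and in 4.23% of 27025 genes. CCGGAAG, bound by ETS factors such as GABP, was in 18.8% and 7.83%, AAGATGGC (YY1) in 2.5% and 1.83%, and CCAAT in 43.8% and 37.5%. The following sites are given 5′ to 3′ on the strand of the gene, with the NRF1 letters in capitals. They are those nearest the start in 5 of the genes that rose with 4-OHT over ethanol. Below them are those of the core subunits Sdha and Atp5c1, which did not pass. Of the 5, Atp5g2 lost its call without any 1 library, and Ndufs5 did not pass with its copy.
Atp5g2 (chr15:102671070-102671099, minus strand): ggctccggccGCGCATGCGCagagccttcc
Atp5k (chr5:108434430-108434459, minus strand): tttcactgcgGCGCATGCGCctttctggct
Cox6a1 (chr5:115349056-115349085, minus strand): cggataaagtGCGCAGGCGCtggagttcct
Ndufs5 (chr4:123718265-123718294, minus strand): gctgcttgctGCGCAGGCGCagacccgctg
Sdhd (chr9:50603909-50603938, minus strand): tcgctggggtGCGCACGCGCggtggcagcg
Sdha (chr13:74350241-74350260, minus strand): gcgactcggtGCGCAAGCGC
Atp5c1 (chr2:10080433-10080459, minus strand): ctgagctcccGCGCACGCGCactgagt

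Of the 14 tested genes with the NRF1 letters, 9 rose with 4-OHT over ethanol and the other 5 did not pass, with a median log2 change of 0.205. Of the 62 tested without them, 32 rose and 4 fell, with a median of 0.15. For CCGGAAG the medians were 0.16 with it and 0.16 without it. A match describes these letters only, and the groups were not matched on base composition.

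Lists of related genes were counted for comparison, beside the 38.3% of all tested genes that changed, 21.1% higher and 17.2% lower. Of 76 mitochondrial ribosomal protein genes tested in Cre-positive cells with 4-OHT against ethanol, 40 rose and 5 fell (59.2% in all), with a median log2 change of 0.155. Mrpl54 and Mrps28, proteins of the large and the small mitochondrial ribosomal subunit, rose by 0.44 and 0.58. Of 11 mitochondrially encoded subunit genes, mt-Co1, the catalytic subunit of complex IV, rose by 0.24, mt-Nd4 of complex I fell by 0.32, and the median was 0.007. Of 39 other assembly factors, 8 rose and 7 fell, or 38.5%, close to the share of all genes. Lrpprc, which stabilises mitochondrial messenger RNA, fell by 0.73 (89.8 CPM with 4-OHT against 149 CPM with ethanol, edgeR adjusted p = 2.61e-11), and Sco1, which carries copper to complex IV, rose by 0.35. Of 10 other nuclear subunits and electron carriers, 3 rose and 1 fell (40%), and of 22 genes of inner membrane transport and protein import, 3 rose and 7 fell (45.5%). Cycs, cytochrome c, rose by 0.37, and Timm44, of the import motor, fell by 0.37.

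Of 16 citric acid cycle genes, 4 fell (25%) and the other 12 did not pass, with a median of -0.06. Dlat and Dlst, of the pyruvate and oxoglutarate dehydrogenase complexes, fell by 0.41 and 0.30. Of 18 glycolysis genes, 3 rose and 5 fell (44.4%), and Hk2, a hexokinase, fell by 0.66. Among 17 regulators, Gabpa, the DNA-binding part of GABP, rose by 0.30, Hif1a, known for its response to low oxygen, rose by 0.29 and Nrf1, named for its site above, fell by 0.15. Of the 17, 3 rose and 3 fell (35.3%). Against untreated cells, where 39.2% of all tested genes changed, 10 of the 16 citric acid cycle genes and 11 of the 18 glycolysis genes fell, and 20 of the 76 mitochondrial ribosomal protein genes rose and 12 fell. Beside these changes, neural markers summed to 107.7 and 108.1 CPM with 4-OHT, against 144.4 and 146.1 CPM with ethanol. Muscle markers summed to 11.4 and 11.6 CPM with 4-OHT, against 7.92 and 8.38 CPM with ethanol, adipocyte markers to 10.6 and 11.6 CPM, against 7.01 and 7.63 CPM, and endothelial markers to 1.90 and 2.13 CPM, against 0.94 and 0.88 CPM. Of the neural list, 1 of 5 tested genes rose and 1 fell, and of the muscle list all 3 tested genes rose, with Myod1, Myog and Myf5 at or near 0. Their part in the result was not tested.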

How the data were processed

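Total RNA of 12 libraries was measured by sequencing. The authors deposited expected counts per gene, which hold whole numbers. Tools named in the submitters' processing notes are cutadapt 1.11, STAR 2.5.2a, RSEM 1.2.30 and edgeR, on GRCm38. The library kit keeps strand, per the labels' protocols, but how strand was counted and which gene annotation was applied is not given in these sources. Reads shared by near-identical genes are divided by estimate in such counts.

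The tests used edgeR 4.0.16 under R 4.3.3. Genes passed filterByExpr (17609), libraries were scaled by TMM, and 1 mean per group was fitted to the 12 libraries (common dispersion 0.00119, 6 residual degrees of freedom). Quasi-likelihood F tests were 2-sided in 8 comparisons. Benjamini-Hochberg adjustment ran over the 17609 genes, and calls were made under 0.05. The standard error (SE) of a log2 change comes from the F statistic. CPM use TMM-scaled totals, and deviations by library use log2(CPM + 0.5). The code was tested on simulated data. Replicates differed by more than sampling noise (chi-square per degree of freedom 2.52 to 5.03), so all were kept.

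Complexes and roles were assigned by hand. The members and the comparison lists were chosen with earlier results of these data known. Named are preset core subunits and paralogue sets, up to 4 members of a complex in either direction whose change was largest, passed and did not overlap, the 10 largest differences between the 4-OHT effects, up to 3 per direction in the other comparisons, members that failed the filter, and up to 3 genes of a list with the smallest adjusted p, and some of these are not reported here. Named outside this, after their values were seen, are Atp5h, Atp5l, Ndufab1, Ndufs3, Nrf1, Cycs, Sdhaf2 and Ndufa10 in the difference between the 4-OHT effects, Atp5b between the lines, and the sites of Sdha and Atp5c1. Coordinates, transcript lengths and copies (found with blastn) come from GENCODE M21, where 94 of the 96 symbols matched 1 gene, and promoters from RefSeq. Alternatives were DESeq2 1.42.0's Wald test and size factors, upper-quartile scaling, no filter, the compared libraries alone, ethanol and untreated libraries joined as 1 control, leaving out each library and, added after seeing the data, the counts of copies.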

Additional observations from a re-analysis of the deposited data

Results flagged for a closer look

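The effect of 4-OHT over ethanol differed between Cre-positive and Cre-negative cells, by edgeR's test of the difference itself, for 33 of the 90 tested genes (36.7%), and for 28.3% of all tested genes. These shares were closer without Cre-negative ethanol library 10 or Cre-positive ethanol library 4. The 10 with the largest difference and the 2 that were lower are given here as log2 differences, Cre-positive minus Cre-negative, with edgeR adjusted p. Ndufaf3 differed by 0.75 (adjusted p = 0.00107), and both of its Cre-positive 4-OHT libraries were the highest of the 12. The accessory subunits of complex I differed by 0.60 (Ndufs5, adjusted p = 0.00178), 0.44 (Ndufa1, 0.00172), 0.40 (Ndufa2, 4.87e-05), 0.37 (Ndufb11, 0.00101) and 0.36 (Ndufb6, 0.00166). With its near-identical copy, Ndufs5 differed by 0.196 (adjusted p = 0.119). In complex III Uqcrfs1 differed by 0.37 (adjusted p = 0.000154). In complex IV Ndufa4 differed by 0.39 (adjusted p = 0.000115) and Cox8a by 0.33 (adjusted p = 0.000386). In complex V Atp5k differed by 0.39 (adjusted p = 0.00169). The 2 lower ones were Sdhaf2 at -0.26 (adjusted p = 0.0158) and Ndufa10 at -0.20 (adjusted p = 0.0103). Cre, line and genotype label cannot be told apart, and the untreated lines differed in 49 of the 90 genes (54.4%) and in 49% of all tested genes.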

How the results depend on the processing

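No paired analysis was possible because the library numbers run from 1 to 12 and no 2 groups share one. In Cre-positive cells with 4-OHT against ethanol, the count of called genes was 38 with DESeq2's Wald test and 51 with ethanol and untreated libraries together as the control, and it ran between 25 and 51 when 1 library was left out, where the lone sample of a group is assumed to vary like the others. The medians with the joined control were 0.085 in complex I, 0.026 in II, 0.167 in IV and 0.124 in V, and 0.106 in V with copies added. With 1 library left out they ran between 0.079 and 0.163 (I), 0.072 and 0.1 (II), 0.095 and 0.189 (III), 0.156 and 0.219 (IV) and 0.105 and 0.177 (V). In Cre-negative cells those medians ran between -0.092 and -0.017 (I), -0.036 and -0.02 (II), -0.057 and 0.02 (III), -0.054 and -0.011 (IV) and -0.013 and 0.018 (V). The count there was 0 with DESeq2's Wald test and 0 without a filter, where 6 and 12 members had an unadjusted p under 0.05. No share of all genes was counted at that unadjusted threshold. The Cre-negative count was 2 with copies added, 2 with upper-quartile scaling, 4 with the compared libraries alone and 6 with the joined control. With 1 library left out, the median of all tested members there ran between -0.067 and -0.004. The difference between the 4-OHT effects gave 21 to 40 with 1 library left out, 4-OHT against untreated 21 to 38 (Cre-positive) and 4 to 16 (Cre-negative, 8 with DESeq2's Wald test), ethanol against untreated 3 to 19 (Cre-positive) and 4 to 13 (Cre-negative), and the untreated lines 37 to 50. Ethanol against untreated in Cre-positive cells gave 8 with DESeq2's Wald test, 8 without a filter and 7 with the compared libraries alone. The counts in this paragraph stand without the share of all tested genes, so they do not set the members apart from other genes.

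For 59 results on single genes these alternatives gave 1120 values, of which 978 kept direction and side of the threshold, 117 lost the call, 3 gained it and 22 changed sign. The 22 were all of 4-OHT against ethanol in Cre-positive cells, and none was of a gene that passed in that comparison. In it, with the joined control Atp5b was at -0.009, Ndufs8 at -0.042, Uqcrc1 at -0.021 and Uqcrc2 at -0.045. With the compared libraries alone Atp5b was at -0.014 and Uqcrc2 at -0.001. With copies added Atp5b was at -0.009, and with DESeq2's size factors or Wald test Atp5b was at -0.002. With 1 library left out Atp5b ran between -0.033 and 0.028, Atp5c1 between -0.005 and 0.089 and Uqcrc2 between -0.009 and 0.053. The cause of these shifts was not tested. The SE of the log2 change in that comparison was 0.159 for Sdhaf1, at a few CPM, and 0.043 for Uqcrfs1, at over 100 CPM. How far depth sets this was not tested.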
